A study of Mus musculus with 12 samples.

Results

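Reduced representation bisulfite sequencing (RRBS) of 12 libraries from a pair of immortalized mouse embryonic fibroblast (iMEF) lines listed 606488 autosomal cytosines in every library, and 95109 of them (15.7%) were called methylated in none of the reads of any library. These 95109 cytosines, with a value of 0 percent in each of the 12 libraries, are described here. They were chosen by that value alone, so their own level carries no test, and what follows concerns where they lay, how they clustered, which promoters they filled and how the cytosines beside them behaved. At the other end, 3028 cytosines (0.499%) were at 100 percent in all libraries, and the remaining 508351 varied between libraries.

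The experimental line had the genotype R26M2rtTA/+;TetOcre;Sdhcfl/fl and the control line R26M2rtTA/+;TetOcre;Sdhcfl/wt. Both lines therefore carried the M2rtTA transactivator at the Rosa26 locus and a Cre recombinase under a Tet operator, and both received doxycycline at 1 µg/mL, which switches Cre on. Cre then removes the floxed part of Sdhc, a membrane subunit of succinate dehydrogenase, from both alleles of the experimental line and from 1 of the alleles of the control line. Genomic DNA was taken before doxycycline (day 0) and after 5, 9, 12, 16 and 20 days of it, with 1 library per line and day. The control group held all 6 control libraries and the experimental group the 5 libraries of days 5 to 20, with the experimental library of day 0 given as a value of its own. Each genotype was represented by 1 cell line followed over time, so the spread between libraries is that of time points of a single line, and line and genotype cannot be told apart. Methylation gave no direct check of the Sdhc deletion or of the cell type: the median promoter methylation was 1.30% for 11 measured promoters of fibroblast matrix and mesenchymal genes, 23.6% for 14 of epithelial genes and 90.4% for 11 of germline genes.

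In mammalian genomes most cytosines followed by a guanine (CpG) carry a methyl group that the DNA methyltransferases copy at each cell division. CpG islands, short stretches rich in CpG that cover the starts of most housekeeping genes and of many developmental genes, are the main exception: proteins with a CXXC domain bind unmethylated CpG there, and the TET dioxygenases oxidize methyl groups that arrive. TET enzymes use the TCA cycle intermediate 2-ketoglutarate and are inhibited by succinate, which builds up in cells that lose succinate dehydrogenase. Bisulfite turns unmethylated cytosine into uracil and leaves methylated cytosine as it is, and RRBS enriches CpG-rich fragments by cutting at CCGG, so CpG islands are sampled densely and the rest of the genome sparsely.

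A value of 0 means that no read called methylation, and its weight depends on how many reads covered the cytosine. The deposited values are percentages without read counts, so the depth behind each 0 is unknown, and a cytosine with a low true level can pass in a shallow library and fail in a deep one. The libraries listed between 909162 autosomal cytosines (control day 12) and 1673954 (control day 5). Over the common cytosines, the share at 0 ran from 32.0% in the experimental library of day 16 to 48.7% in the control library of day 12. The same libraries had the lowest and the highest share at 100, 11.5% and 34.4%. With control day 12 left out of the selection, 154592 cytosines qualified. Just outside the threshold stood 51301 cytosines above 0 in exactly 1 library, where the median level was 5.56%. Allowing at most 1% in every library gave 95768 cytosines, at most 5% gave 130378 and at most 10% gave 158706.

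Promoter sequences show how the cytosines are packed. The following stretches end at the base before an annotated start site and are written in the direction of transcription, 5′ to 3′, from RefSeq sequence of GRCm38.p6, the assembly behind mm10. Capitals mark the cytosines at 0 in all 12 libraries, as C where the cytosine lies on the printed strand and as G where it lies opposite. CpGs in lower case were either not listed in all libraries or above 0 in at least 1. Dyrk1a (chr16:94569956-94570205, plus strand) is shown because its promoter held more of these cytosines than any other measured, Cisd2 (chr3:135423434-135423683, minus strand) and Sec24d (chr3:123267246-123267495, plus strand) because they hold long unbroken runs, Slc12a7 (chr13:73763410-73763659, plus strand) because its run lies across the start site, Cops4 (chr5:100518059-100518294, plus strand) because all its listed cytosines qualified, and Foxc1 (chr13:31806396-31806645, plus strand) because the cytosines upstream of it differed between the lines.
Dyrk1a: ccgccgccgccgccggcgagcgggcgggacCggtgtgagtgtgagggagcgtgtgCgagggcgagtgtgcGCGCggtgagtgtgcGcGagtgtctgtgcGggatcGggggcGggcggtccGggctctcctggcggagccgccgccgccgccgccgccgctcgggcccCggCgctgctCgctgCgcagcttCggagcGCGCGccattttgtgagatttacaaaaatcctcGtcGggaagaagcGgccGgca
Cisd2: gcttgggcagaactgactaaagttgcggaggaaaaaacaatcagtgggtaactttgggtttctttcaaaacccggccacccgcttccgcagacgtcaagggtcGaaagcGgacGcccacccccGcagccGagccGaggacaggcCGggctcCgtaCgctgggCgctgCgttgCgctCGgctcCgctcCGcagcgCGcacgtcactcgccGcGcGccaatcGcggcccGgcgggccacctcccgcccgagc
Sec24d: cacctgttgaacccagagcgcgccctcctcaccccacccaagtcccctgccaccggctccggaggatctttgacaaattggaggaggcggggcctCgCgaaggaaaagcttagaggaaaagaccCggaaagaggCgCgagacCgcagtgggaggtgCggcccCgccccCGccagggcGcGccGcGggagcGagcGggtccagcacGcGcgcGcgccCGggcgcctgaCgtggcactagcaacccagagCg
Slc12a7: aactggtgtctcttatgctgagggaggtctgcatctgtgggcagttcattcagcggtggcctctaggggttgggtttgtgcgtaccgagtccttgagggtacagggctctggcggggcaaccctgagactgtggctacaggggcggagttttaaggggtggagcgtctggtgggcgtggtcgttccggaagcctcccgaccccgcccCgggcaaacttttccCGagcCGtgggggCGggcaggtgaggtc
Cops4: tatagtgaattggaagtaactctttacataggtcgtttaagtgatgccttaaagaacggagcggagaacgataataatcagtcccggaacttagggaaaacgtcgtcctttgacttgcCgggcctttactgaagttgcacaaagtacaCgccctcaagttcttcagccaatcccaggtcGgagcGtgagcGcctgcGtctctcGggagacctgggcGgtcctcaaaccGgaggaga
Foxc1: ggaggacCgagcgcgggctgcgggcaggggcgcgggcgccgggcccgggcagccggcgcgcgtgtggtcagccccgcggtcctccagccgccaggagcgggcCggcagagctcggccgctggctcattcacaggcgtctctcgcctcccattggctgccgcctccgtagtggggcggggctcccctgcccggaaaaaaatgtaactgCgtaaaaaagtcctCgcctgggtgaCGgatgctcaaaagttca
In these stretches 26 of 32 listed cytosines were at 0 throughout for Dyrk1a, 25 of 31 for Cisd2, 23 of 28 for Sec24d, 7 of 7 for Slc12a7, 9 of 9 for Cops4 and 6 of 7 for Foxc1.

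The cytosines lay mostly at gene starts. Their median distance to the nearest annotated transcription start site (TSS) was 199 bp, against 3556 bp for all listed cytosines, 6977 bp for the varying ones and 14038 bp for those at 100 in every library. Within 500 bp of a TSS lay 75209 of them (79.1%), compared with 32.1% of all listed cytosines and 2.41% of those at 100 percent. A promoter window, from 1500 bp upstream to 500 bp downstream of a TSS, covered 83.1% (exact 95% binomial interval 82.8 to 83.3, counting error only) and 35.9% of all listed cytosines. Of the remainder, 14105 (14.8%) lay in gene bodies outside promoter windows and 1987 (2.09%) in neither. More than 5000 bp from any TSS stood 3682 (3.87%), although 46.7% of the listed cytosines were there. Position was not used in choosing the cytosines, and it is given as a description, because neighbouring cytosines are not independent.

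Around the TSS the share of listed cytosines at 0 formed a peak with a longer shoulder inside the gene. In bins of 100 bp it was highest just upstream, at 45.2% in the bin centred at -50 bp. It was 24.7% at -450 bp and 23.5% at +750 bp, the outermost bins above 0.5 of the peak, and 3.64% and 2.50% in the bins at -2950 and +2950 bp. The 500 bp on the downstream side held 49544 of the cytosines and the 500 bp upstream 25665, because more cytosines were listed downstream: the shares at 0 were 38.5% and 39.0%. Mean methylation moved inversely, from 63.5% at -2950 bp to 5.79% at -50 bp. Even where methylation was lowest, more than 0.5 of the listed cytosines had a methylated call in at least 1 library.

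**Figure D1:**
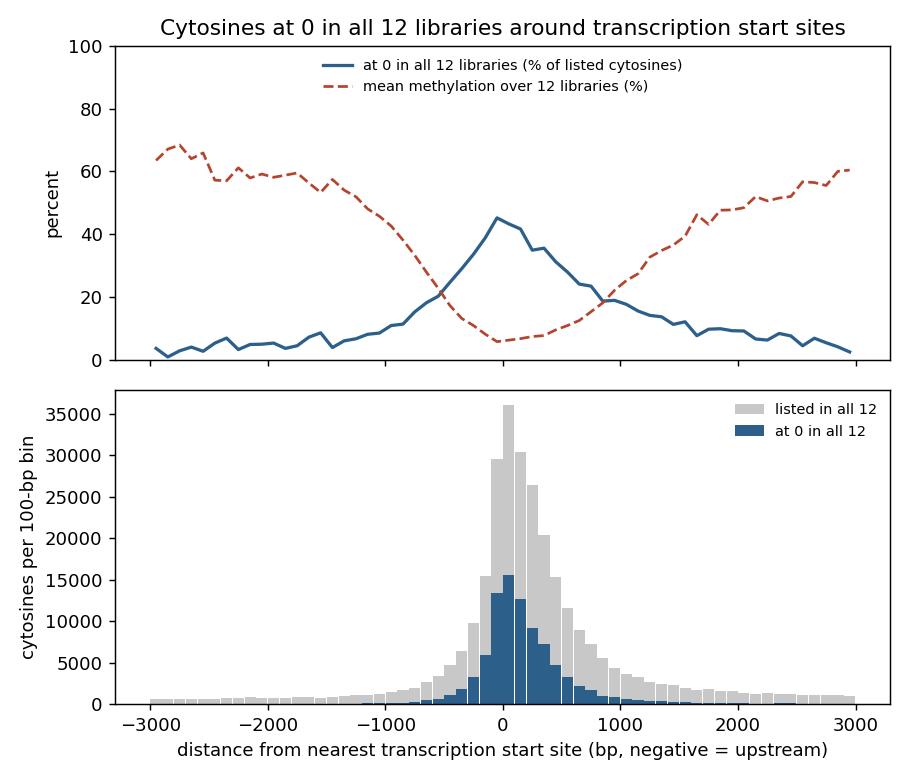
Share of listed cytosines at 0 in all 12 libraries (solid, percent) and mean methylation over the libraries (dashed, percent) in 100-bp bins by distance from the nearest transcription start site, above the number of listed cytosines (grey) and of those at 0 (blue) per bin. The share at 0 is highest at 45.2% just upstream of the start, where mean methylation is 5.79%, and falls more slowly downstream than upstream.

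The share at 0 varied with the type of gene at the nearest start. Among cytosines within 500 bp of the TSS of a protein-coding gene, 40.02% of 177010 were at 0 throughout. The share was 25.1% of 16670 near long non-coding RNA (lncRNA) genes and 26.3% of 754 near miRNA genes. Chromosomes differed less: between 13.6% of listed cytosines on chromosome 12 and 17.5% on chromosomes 17 and 19 were at 0, and within 500 bp of a TSS the shares ranged from 35.0% on chromosome 12 to 42.1% on chromosome 16.

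Local sequence moved with the share at 0. In promoter windows of 300 bases from the RefSeq table, which matched 9501 of the 14337 promoters measured (66.3%), 12.2% of cytosines with 1 to 3 CpGs in the surrounding bases, 50 to either side, were at 0. The share rose through 31.8%, 42.9% and 47.6% to 52.1% with 13 or more. Cytosines inside CCGG, the site at which the RRBS enzyme cuts, were at 0 more often (49.4% of 6264) than the others (43.6% of 24114). Fragments start at these sites, and whether read coverage differed there is not known from percentages. In promoters where at least 0.5 of the listed cytosines were at 0, the median observed-over-expected CpG ratio was 0.858 and the median GC content 64.3%. In promoters with none at 0 and a mean methylation of 20% or more, these were 0.392 and 54.3%.

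Short motifs in the same windows were counted on both strands. GGGCGG, the GC box bound by SP family factors, stood in 73.2% of 3198 promoters with at least 0.5 of their cytosines at 0, in 31.7% of 2007 methylated promoters with none at 0, in 63.1% of all 9501 measured promoters matched, and in 36.0% of all 31396 windows of the table. It did not follow the share at 0 step by step, standing in 73.0% of 3345 promoters with some but under 0.5 of their cytosines at 0 and in 57.1% of 70 wholly filled ones. CCGGAAG, the core bound by ETS factors, stood in 22.7% of the first class, 7.47% of the methylated one, 15.6% of the measured promoters and 9.00% of the table, with 15.3% of promoters under 0.5 and 24.3% of filled ones. TATAAA went the other way, in 5.47%, 10.9%, 7.25% and 13.6%, in the same order up to the table, and CCAAT was nearly even, in 37.3%, 35.1%, 35.3% and 37.3%. The motifs with CpG or GC-rich letters are met more often in GC-rich windows by their letters alone, and a match is not a bound site.

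Members stood next to one another. The nearest listed cytosine was also at 0 for 56.4% of the members and for 8.08% of the other listed cytosines. Spacing differed as well, with a median of 4 bp to the nearest listed cytosine for members and 12 bp for the others. At an equal spacing of 11 to 50 bp the shares were 53.3% and 4.06%, and between 100 and 500 bp they were 37.04% and 1.04%. For the 186 members whose nearest listed cytosine lay more than 500 bp away, that cytosine had a median level of 49.4%. Inside a CpG, partners of members were low. Of 2848 CpGs in the promoter sequence windows with both cytosines listed, 851 had both at 0 and 993 had 1 at 0. In these 993, the partner that was not at 0 had a median level of 0.595% over the libraries and a 95th percentile of 4.16%.

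Methylation of the other listed cytosines rose step by step with distance from the nearest member. At 1 to 10 bp, library means ran from 1.13% to 1.93%. They were between 3.44% and 4.17% at 11 to 100 bp, between 11.3% and 12.5% from there to 500 bp, between 29.8% and 31.9% from there to 1000 bp and between 63.02% and 65.6% from there to 5000 bp. Beyond 5000 bp they reached 66.6% to 69.6%. At 1 to 10 bp the experimental libraries of days 5 to 20 spanned 1.70% to 1.93% and the control libraries 1.13% to 1.65%, without overlap, and beyond 5000 bp they spanned 67.7% to 69.6% and 66.6% to 67.5%, again without overlap, while in the 4 classes between the ranges overlapped. Control days 0 and 5, at 1.65% and 1.61%, stood nearer the experimental libraries than to the other 4 control libraries, which ran from 1.13% to 1.27%. These ranges were read from the same libraries that chose the members and carry no test.

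**Figure D2:**
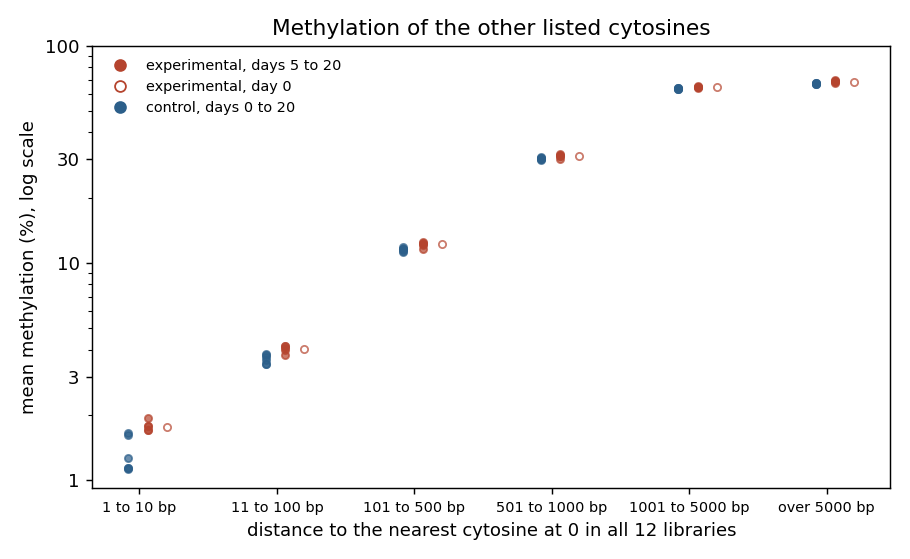
Mean methylation (percent, log scale) of listed cytosines that were not at 0 in all 12 libraries, by distance to the nearest cytosine that was, with 1 point per library (control blue, experimental red, experimental day 0 open). Means lie under 2% within 10 bp and above 60% beyond 1000 bp in all libraries.

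Joined across gaps of at most 100 bp with no other listed cytosine between them, the members formed 47383 runs. Single cytosines made up 26001 of these (27.3% of the members). Runs of at least 5 cytosines numbered 3556 and held 23076 members (24.3%), and runs of at least 10 numbered 275 with a median length of 92 bp. Of these 275 runs, 250 (90.9%) lay within 500 bp of a TSS and 5 (1.82%) lay more than 5000 bp from one. Without control day 12 in the selection there were 800 such runs, and without control day 0 there were 419.

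The longest runs held 20 cytosines each. One spanned 87 bp at the start of Smurf2 (chr11:106920697-106920783), which encodes a ubiquitin ligase acting on TGF-β signalling. The other spanned 161 bp inside Dyrk1a (chr16:94570457-94570617), downstream of the stretch printed above, and encodes a dual-specificity kinase. Runs of 18 lay at Sec24d, a cargo-binding subunit of the COPII coat, at Mprip, a myosin phosphatase partner, at Brms1l, a component of SIN3 histone deacetylase complexes, at Slc12a7, a potassium-chloride cotransporter, at Ppp1r16a, a regulatory subunit of protein phosphatase 1, and at the lncRNA gene BC051226. The run of 16 at Cisd2 (chr3:135423501-135423580), which encodes an iron-sulfur protein of the endoplasmic reticulum and outer mitochondrial membrane, lies inside the printed stretch, with further marked cytosines to its right. All of these runs had their centre within 331 bp of a TSS.

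By the starts used here, a run of 17 was the exception among the 10 longest. It lay in the Nr3c1 gene, which encodes the glucocorticoid receptor (chr18:39489629-39489864), 29675 bp downstream of the nearest annotated start used here. The other runs of at least 10 more than 5000 bp from a start held 14 cytosines in Ahdc1, 14 at 12231 bp downstream of the start of Fos, 12 at -24398 bp from the start of Smad7 and 10 inside Rere. Fos encodes a subunit of the AP-1 factor and Smad7 an inhibitor of TGF-β receptors. Distances hold for the RefSeq starts used here, and a start missing from that set would move them. For Nr3c1 the set held a single start, whose window had 0 listed cytosines.

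Few promoters were filled completely. Of 14337 promoters with at least 3 listed cytosines, 1 window per gene, 10031 (70.0%) held at least 1 member, 6815 (47.5%) at least 5 and 4306 (30.03%) none. The median promoter had 33.3% of its listed cytosines at 0, with quartiles of 0% and 55.6%. In 110 promoters (0.767%) every listed cytosine was at 0, 99 of them of protein-coding and 11 of lncRNA genes. Protein-coding promoters were filled in 0.840% of cases and lncRNA promoters in 0.449%. Overlapping windows shared cytosines: 22 of the 110 had a cytosine in common with another filled promoter.

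Filling depended on how many cytosines were listed. It was seen in 2.57% of 1711 promoters with 3 or 4 listed cytosines, in 1.799% of 3280 with 5 to 9, in 0.162% of 4327 with 10 to 19, and in 0 of 4572 with 20 to 49 and 0 of 447 with 50 or more. The median share at 0 moved the opposite way, from 0% with 3 or 4 listed to 53.6% with 50 or more. A filled promoter is therefore mostly a sparsely listed one, with a median of 5 listed cytosines against 14 over all promoters, and no promoter with 20 or more listed cytosines was wholly at 0.

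The filled promoters with the most cytosines belonged to Clcn4, a chloride-proton exchanger (14 of 14), Maml1, a coactivator of Notch signalling (13 of 13), and the neighbours Lamtor1 and Tomt, whose windows held the same 11 cytosines at opposed starts. Lamtor1 anchors the Ragulator complex to lysosomes and Tomt is a methyltransferase needed for hearing. Ccdc9, Mkrn2 and Ufc1 followed with 10 of 10 each, Ufc1 being the conjugating enzyme of the ubiquitin-like modifier UFM1. A further 8 promoters tied at 9 of 9, namely those of Cops4, a subunit of the COP9 signalosome, Cox6b1, a subunit of cytochrome c oxidase, Hspa4l, a chaperone of the heat shock 70 family, D3Ertd751e, Dmtf1, Emsy, Sclt1 and Tent5a.

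Counted by number rather than by share, the fullest promoter was that of Dyrk1a with 94 of 127 listed cytosines at 0 and a mean methylation of 0.00254 as a beta value, the fraction methylated. Next came Mex3c with 69 of 85, Ski with 63 (61.8% of its listed cytosines), Enah with 61 of 97 and Erbin with 59 of 76. These genes were named after their values were seen. Zbtb1 and Zbtb25, which face each other, shared 58 of 97. Ski encodes a repressor of SMAD factors and Enah a regulator of actin filaments.

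Gene lists differed widely in how much of their promoters lay at 0. The ribosomal protein genes had the highest median, 60% of listed cytosines over 47 measured promoters, followed by ubiquitin and SUMO genes at 58.8% (17), cytosolic and ER chaperones at 58.3% (25), cytosolic aminoacyl-tRNA synthetases at 56.5% (18), factors bound to CpG islands at 56.0% (20) and spliceosome components at 53.8% (27). All promoters together stood at 33.3%, and the protein-coding ones, to which the listed genes belong, at 37.6%. Medians of 51.4% for SDH subunits and TCA cycle enzymes (22), 50% for proteasome subunits (29) and for DNA methylation enzymes and readers (17), 48.8% for replication proteins (24) and 41.7% for respiratory complex I subunits (29) were also higher. Glycolytic enzymes (15) and fibroblast matrix and mesenchymal genes (11) stood at 36.4%, below the protein-coding median. These counts describe lists that were chosen with earlier results of these data known. Lists also differed in the median number of listed cytosines per promoter. It was 21 for ribosomal proteins, 9.5 for aminoacyl-tRNA synthetases, 17 for Hox genes and 7 for germline genes, beside 14 over all promoters. The share at 0 rose with that number over all promoters, and its part in the list medians was not tested.

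Lists of developmental regulators and of genes typical of other cell types had a median of 0%. No member lay in 37 of 66 promoters of developmental transcription factors, in 17 of 29 of Hox genes, in 10 of 14 of epithelial genes, in 7 of 9 of chromaffin genes and in 11 of 11 of germline genes. Mean promoter methylation separated these lists from each other: its median was 90.4% for germline genes, 23.6% for epithelial, 15.9% for chromaffin, 13.3% for developmental transcription factors and 10.8% for Hox genes. With at most 5% in every library in place of 0, the medians were 82.5% for ribosomal protein genes, 3.64% for developmental transcription factors, 0% for the other 4 lists and 50% over all promoters.

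**Figure D3:**
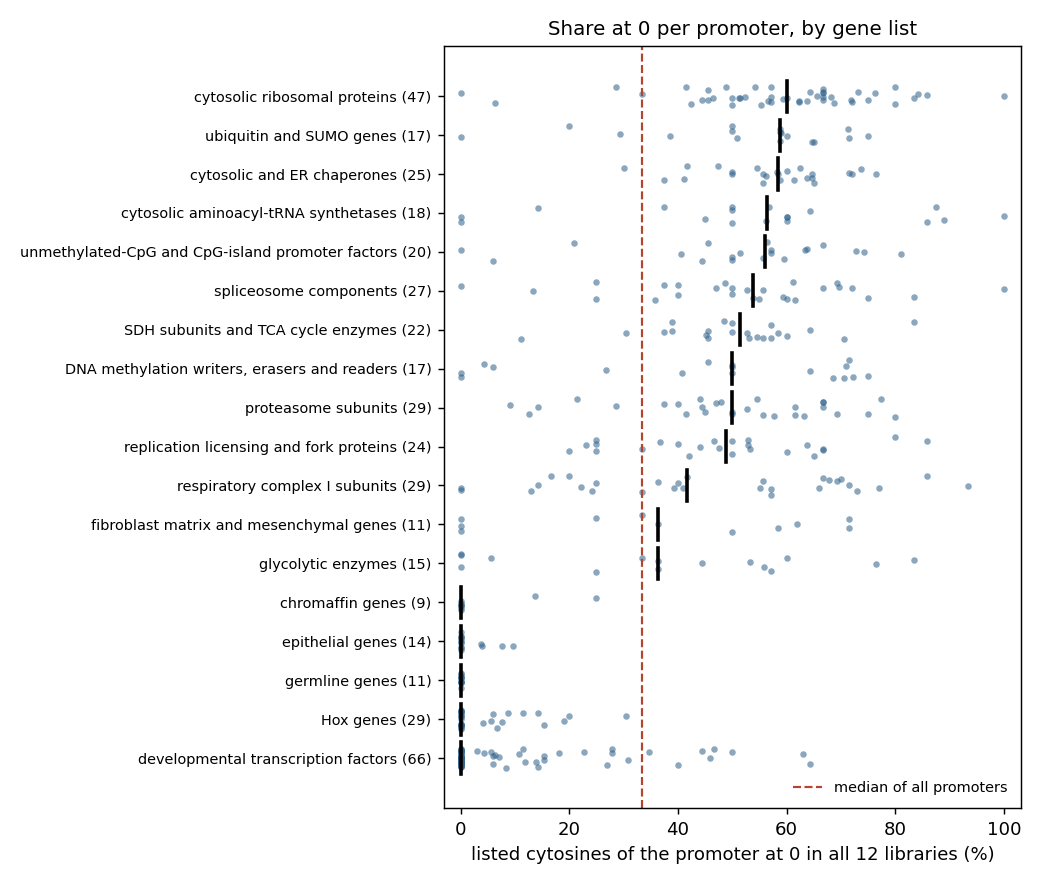
Share of a promoter's listed cytosines at 0 in all 12 libraries (percent), 1 point per promoter, by gene list with the number measured in brackets; black bars are list medians and the dashed line the median of all promoters (33.3%). In 13 lists the median lies above that of all promoters, in 11 above that of protein-coding promoters (37.6%), and in 5 it is 0.

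Within lists the exceptions were large. Rps9 (3 of 3), encoding a small-subunit ribosomal protein, Cars (8 of 8), the cysteinyl-tRNA synthetase, and Sf3a3 (4 of 4), a subunit of the U2 particle, were filled, while Rpl22, a large-subunit ribosomal protein, had none of 5 at 0 and a mean methylation of 92.5%. None of 6 was at 0 for Srsf1, a splicing factor (62.4%), and none of 4 for Rbx1, a core subunit of cullin ubiquitin ligases (63.1%). Rpl22 and Srsf1 each have another start further downstream, whose window held the same cytosines, all upstream of it. Their levels therefore need not describe the sequence at that start. Kdm2a, which encodes a demethylase that itself binds unmethylated CpG, had none of 22 at 0 and a mean methylation of 74.3% in the window used. Tagln, a smooth muscle and fibroblast actin binder, had none of 14 at 0 but 7.39% methylation, so low methylation and an exact 0 throughout are not the same. Dazl, a germ cell RNA-binding protein, had none of 17 at 0 and 91.5% methylation. The highest shares below 100% in other lists, looked up after the values were seen, included 14 of 15 cytosines for Ndufs5 (93.3%), a complex I subunit, 85.7% for Mcm5, a subunit of the replicative helicase, and 80% for Psmb3, a proteasome subunit.

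Genes that the study names in these cells ranged widely in what was listed. In the promoter of Sdhc, the gene deleted, 3 of 8 listed cytosines were at 0 in all libraries (37.5%), and mean methylation was 2.89%. Sdhb, which encodes the iron-sulfur subunit of the same enzyme, had 6 of 11 (54.5%), and all 11 were at most at 5%. Pcx, encoding pyruvate carboxylase, had 13 of 26. The window used for Ldha, encoding a lactate dehydrogenase subunit, had none of 6 at a methylation of 70.7%, and the windows of its other starts, with 4 and 2 listed, had none at 0 at 5.59% and 4.43%. Aldh2, encoding a mitochondrial aldehyde dehydrogenase, had none of 4 (51.9%), and Ldhb had no listed cytosine.

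Each library was also measured at the cytosines that were at 0 in the other 11, a choice its own values do not enter. Because the other 11 include the remaining days of the same line, a cytosine methylated throughout a line is left out, and the measure takes in only calls found in a single library. It says nothing about methylation that the libraries of a line share. Between 96931 and 101693 cytosines qualified per library. Each set included the 95109 members, which were at 0 in the left-out library too. All values above 0 therefore came from 1822 (control day 12) to 6584 (experimental day 16) further cytosines. Mean methylation of the left-out library was 0.503%, 0.503%, 0.528%, 0.492% and 0.479% in the experimental libraries of days 5, 9, 12, 16 and 20. In the control libraries it was 0.468%, 0.468%, 0.354%, 0.399%, 0.348% and 0.351% in the same order, beginning with day 0. In these calls all experimental libraries lay above all control libraries, the nearest being experimental day 20 and control day 5, and the control libraries of days 0 and 5 stood apart from the 4 later ones. The means were 0.501% ± 0.0178 (SD, n = 5) and 0.398% ± 0.0575 (SD, n = 6), a difference of 0.103 percentage points (exact permutation test on the absolute difference, two-sided, p = 0.00866 over 462 arrangements). The test exchanges time points of 1 cell line per genotype, so it gives no measure of the spread between lines of a genotype.

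The experimental library of day 0, before doxycycline, was at 0.498%, inside the range of the later experimental libraries. It stood 1 library against 1 beside control day 0 at 0.468%, and no difference is read from that pair. In promoter windows the means were 0.447% ± 0.0188 and 0.354% ± 0.0546 (exact permutation p = 0.0108, n = 5 and 6), and outside them 0.761% ± 0.0430 and 0.610% ± 0.0828 (exact permutation p = 0.013, n = 5 and 6), the latter chosen after the data were seen. Counted as the share of cytosines with any methylated call, the values were 5.09% ± 1.46 and 3.33% ± 1.22 with overlap (exact permutation p = 0.0584, n = 5 and 6). This share moved with the number of cytosines a library listed, from 1.88% in control day 12, which listed the fewest, to 6.47% in experimental day 16. Over all common cytosines, mean methylation ran from 43.4% to 44.7% in the experimental libraries of days 5 to 20 and from 42.7% to 43.4% in the control libraries, and the part of this general difference in the result was not tested. A cytosine that bisulfite fails to convert is read as methylated, and the conversion rate of each library was not given in the sources used here.

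**Figure D4:**
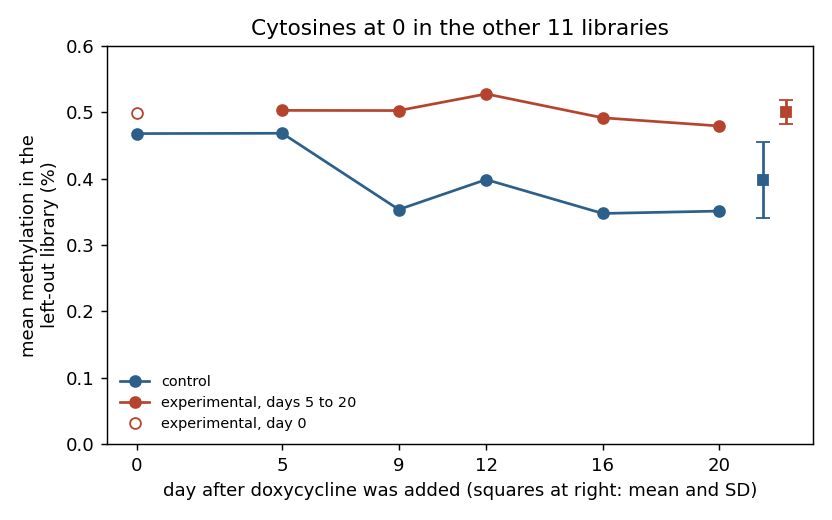
Mean methylation (percent) of each library at the cytosines that were at 0 in the other 11, by day after doxycycline, for the control line (blue), the experimental line (red) and experimental day 0 (open), with group mean and SD as squares at the right. The 5 experimental libraries lie between 0.479% and 0.528% and the 6 control libraries between 0.348% and 0.468%.

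A few levels were high in a single library. Of the 51301 cytosines above 0 in exactly 1 library, between 29 (control day 20) and 334 (control day 12) per library were at 50% or more there. The libraries listing the fewest cytosines, control day 12, control day 0 and experimental day 20, had 334, 229 and 222 of these, and control day 5, which listed the most, had 71.

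Promoters that hold members also contain cytosines that are not at 0, and these were compared between the lines. The members were left out of each promoter mean. The other cytosines enter it because at least 1 of the same libraries was above 0, and promoters were grouped by their members. The values compared are therefore not independent of the rule. With limma on M-values (log2 of the ratio of methylated to unmethylated fraction, offset 0.01), 269 of 13405 promoters tested passed a Benjamini-Hochberg adjusted p of 0.05, a background of 2.01% called, 1.42% higher and 0.589% lower in the experimental line. Among the 6390 promoters with at least 5 members, 59 passed (0.923%), 44 higher and 15 lower. This share lay below the background, which includes these promoters, and the gap depended on the offset. With an offset of 0.001 the shares were 0.955% and 1.16% over all promoters. With 0.05 they were 1.47% and 3.83%. Why the shares differ was not tested. In some of the 44, among them Gsk3b, Wasf1, Mpp5 and Pygo2, the other cytosines were at 0 in all control libraries. They were kept only because an experimental library was above 0, so no other direction was possible. The split into 44 higher and 15 lower was therefore partly set by the rule. Over all promoters tested the median M-value difference was 0.29, experimental minus control, and over those with at least 5 members 0.31.

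The changes called varied in size. In 23 of the 59 promoters the beta values differed by less than 0.05, in 36 by 0.05 or more, and in 19 by at least 0.1, of which 6 were higher and 13 lower in the experimental line. Calls were kept in each of the 11 fits that left out 1 library for 21 of the 59, 12 higher and 9 lower. The 12 included Gsk3b and Wasf1, whose other cytosines were at 0 in all control libraries. The count of 59 fell to 28 without experimental day 12, to 30 without control day 16, to 35 without experimental day 5 and to 38 without control day 9. Over all promoters the count of 269 fell to 140, 168, 162 and 193 in the same fits.

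Smarca5, which encodes the ISWI chromatin remodelling ATPase SNF2H, had the largest decrease. Its 5 members lay 437 to 481 bp downstream of the start. The 18 other cytosines, from -53 to +484 bp, had mean beta values of 0.00760, 0.0201, 0.00466, 0.00444 and 0.0247 in the experimental libraries of days 5 to 20 and of 0.325, 0.410, 0.321, 0.572, 0.378 and 0.301 in the control libraries. The groups did not overlap, and experimental day 0 stood at 0.00265. The group means were 0.0123 ± 0.00943 (SD, n = 5) and 0.385 ± 0.101 (SD, n = 6), with an M-value difference of -4.90 ± 0.38 (SE, limma adjusted p = 0.000115). At the cytosine with the widest gap, +309 bp, the experimental mean was 0% and the control mean 73.2%. Cytosines at 0 in both lines and cytosines methylated in the control line thus stood side by side downstream of the start.

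Rara, the retinoic acid receptor alpha gene, held 15 members between -9 and +240 bp. Its 26 other cytosines had beta values from 0.00641 to 0.0214 in the experimental libraries and from 0.0304 to 0.357 in the control libraries (M-value difference -3.40 ± 0.60 SE, limma adjusted p = 0.0162). Fitted as beta values, it had a limma adjusted p of 0.0671. Control day 12 was the lowest control library, and experimental day 0 was at 0.0108. The methylated cytosines of the control line lay upstream, with 0% against 62.5% at -894 bp.

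Pias4, which encodes a SUMO ligase, held 9 members from +61 to +293 bp. Its 10 other cytosines stood at 0.0159 to 0.1 in the experimental libraries and 0.159 to 0.400 in the control libraries (M-value difference -2.70 ± 0.45 SE, limma adjusted p = 0.0143). Experimental day 0 was at 0.0553. The widest gap, 23.3% against 100%, was at -1481 bp, near the far edge of the window, and 3 of the 10 cytosines differed by at least 20 percentage points.

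Foxc1, a forkhead factor of mesenchymal development, had the largest increase. Its 9 members lay between -293 and +30 bp, partly in the stretch printed above. As beta values, the 17 other cytosines averaged 0.292, 0.317, 0.291, 0.310 and 0.279 in the experimental libraries and of 0.0353, 0.0164, 0.165, 0.0718, 0.0892 and 0.0712 in the control libraries, again without overlap, and experimental day 0 was at 0.302. The means were 0.298 ± 0.0154 (SD, n = 5) and 0.0748 ± 0.0518 (SD, n = 6), with an M-value difference of 2.49 ± 0.45 (SE, limma adjusted p = 0.018). The gap was widest at -581 bp, at 88.7% against 22.4%, and it closed toward the members.

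Rhod, which encodes a small GTPase, and Lfng, encoding a glycosyltransferase that modifies Notch, were the other 2 named promoters higher in the experimental libraries. Rhod, with 6 members, averaged 0.104 ± 0.0593 in the control and 0.287 ± 0.0465 in the experimental libraries at 7 other cytosines (limma adjusted p = 0.0416). Of these 7, 2 differed by at least 20 percentage points. Lfng, with 5 members, averaged 0.250 ± 0.0367 and 0.418 ± 0.0248 at 34 (limma adjusted p = 0.0407), of which 13 differed that much. Experimental day 0 was at 0.205 for Rhod and 0.397 for Lfng. Neither range overlapped between lines, but the calls did not survive most omissions: with 1 library left out, Rhod passed in 2 of 11 fits and Lfng in 1.

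**Figure D5:**
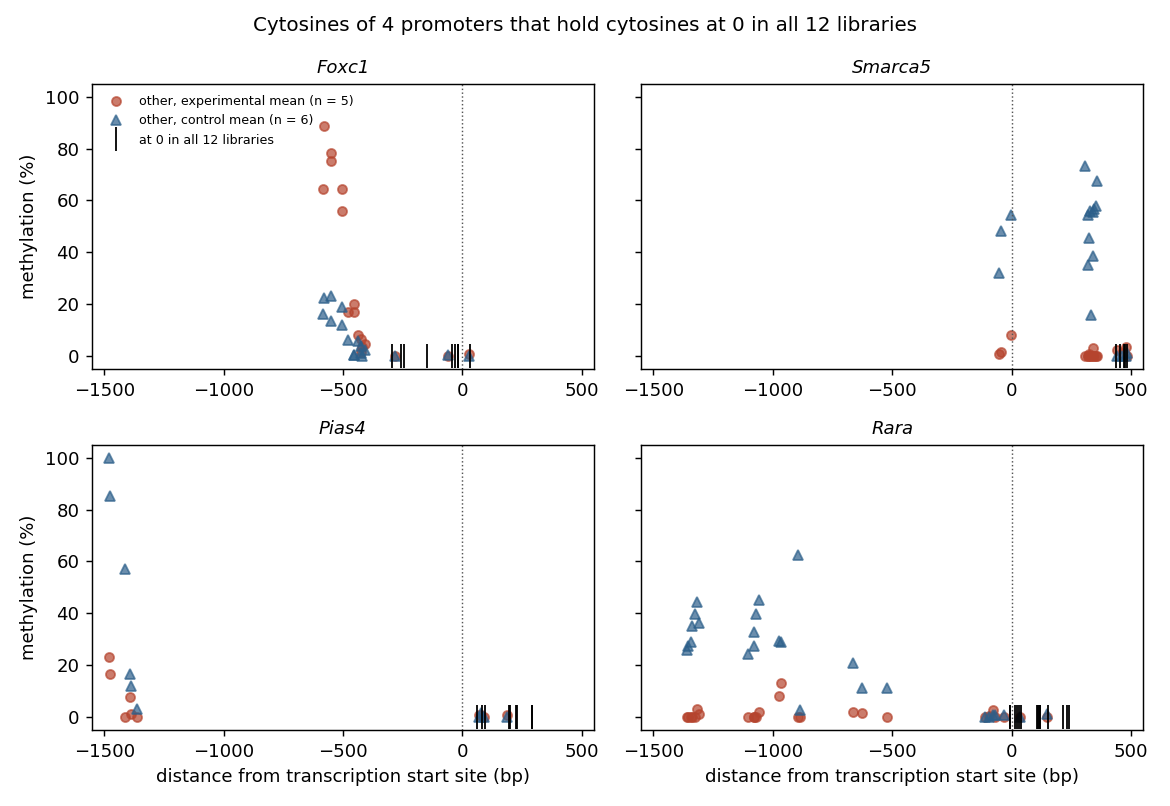
Methylation (percent) of listed cytosines by distance from the transcription start site in the promoters of Foxc1, Smarca5, Pias4 and Rara, as experimental (red circles, n = 5) and control (blue triangles, n = 6) means for cytosines that were not at 0 throughout, with black ticks at those that were. In each promoter the lines differ at cytosines to one side of the ticks, for instance 88.7% against 22.4% at -581 bp of Foxc1.

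The state before treatment was nearer to the later experimental libraries in most of these promoters. In 38 of the 59 called, the beta value of experimental day 0 lay closer to the experimental mean of days 5 to 20 than to the control mean, and in 21 it lay closer to the control mean. With a single library at that time, this is a description.

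By gene list, 16 of 395 promoters tested were called (4.05%), 12 higher and 4 lower in the experimental line. This share lay above the 2.01% called over all promoters. Many of the 16 calls came from Hox genes (2 higher and 2 lower of 29) and developmental transcription factors (3 higher and 1 lower of 66). The lists were chosen with earlier results of these data known, so the gap to the 2.01% is a description. No promoter passed among 39 tested for ribosomal proteins, 25 for proteasome subunits, 24 for spliceosome components, 26 for complex I, 22 for SDH and TCA cycle enzymes and 17 for DNA methylation enzymes and readers. Cdc45 and Gins3, parts of the replicative helicase, were higher among 21 replication promoters, Pdia3, a disulfide isomerase, among 25 chaperones and Nfyb, a subunit of the CCAAT-binding factor NF-Y, among 20 factors bound to CpG islands. Each held at least 5 members, and the beta values differed by only 0.0184 for Cdc45, 0.0399 for Gins3, 0.0156 for Pdia3 and 0.0227 for Nfyb. These calls were kept in 2, 3, 7 and 2 of the 11 fits without 1 library. For Gins3 and Pdia3 the other cytosines were at 0 in all control libraries. They entered the promoter means only through experimental libraries, so the direction of these calls was set by the rule. Eno2, a glycolytic enzyme, Chga, a chromaffin granule protein, and Ube2l3, a ubiquitin-conjugating enzyme, were higher and Tagln was lower, and each held fewer than 5 members. Of 29 Hox promoters Hoxa6 and Hoxd4 were higher and Hoxa10 and Hoxb9 lower, and among these Hoxa10 held at least 5 members. Of 66 developmental transcription factors Foxc1, Barx1 and Tbx3 were higher and Sox2 lower. Median M-value differences were 0.33 for ribosomal proteins, 0.34 for SDH and TCA cycle enzymes and -0.19 for Hox genes, beside 0.29 over all promoters.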

How the data were processed

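RRBS was measured in 12 libraries of 2 iMEF lines. Per the paper's methods and the labels, Bismark was used to map reads against mm10 and to extract calls. The authors deposited a bedGraph per library that gives each CpG cytosine a percent methylation and no counts. The Bismark version is not given in the sources used here.

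The end column was taken as the 1-based position. Both cytosines of a CpG were kept apart. Cytosines on 19 autosomes listed in all libraries were used. Within a library pair, 20.7% to 49.1% of varying cytosines had identical values, so no library was counted as a copy of another. The 43067 TSSs came from RefSeq GRCm38.p6: starts in a promoter table plus the 5′ end of each gene, for 30517 genes in all. Of these genes, 4769 had only the gene end, and 20358 of 20665 autosomal protein-coding genes had a start. Where the table gave no strand, it was looked up by symbol and chromosome in GENCODE annotation of an older build, whose coordinates were not used. Promoters covered 1500 bp before and 500 bp after the TSS and needed at least 3 listed cytosines. Each gene had 1 window, that with the most listed cytosines. The TSS set and this choice were made after the files were seen. Exon, intron and UTR annotation of this build was not used here.

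Members and gene lists were chosen with earlier results of these data known. The named genes are 10 filled promoters with the most members (places 8 to 10 fall in a tie of 8, all of which are named), the genes at the 10 longest runs, the 3 largest increases and decreases in beta value among called promoters with at least 5 members, the filled and lowest promoter of each list and 6 genes named by the study. Beta values are percent divided by 100. Promoter means were compared with limma 3.58.1 in R 4.3.3 (M-values, offset 0.01, Benjamini-Hochberg adjustment, threshold 0.05), in the study's grouping of 6 control against 5 experimental libraries, and tested on simulated data first. Left-out means were compared by exact permutation of libraries. Alternatives covered the threshold, windows, gaps, offsets, a replicate block by day and each library left out. Figures were drawn with matplotlib 3.10.9.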

Additional observations from a re-analysis of the deposited data

How the results depend on the processing

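The selection itself was sensitive to how often a cytosine had to be listed: 189392 cytosines were at 0 in every library listing them when 11 libraries sufficed, and leaving out 1 library gave between 99297 and 154592. A limit of 1% or 5% and 1 count per CpG kept the number within 1.5 times. The share inside promoter windows was 79.1% with 500 bp either side, 80.1% with protein-coding genes only and 82.5% at a limit of 5%, and between 82.6% and 82.9% with 1 library left out. Filled promoters numbered 66 with at least 5 listed cytosines and 7 with at least 10, and between 97 and 149 with 1 library left out. Runs of at least 10 numbered between 314 and 800 with 1 library left out, and 214 or 410 with gaps of 50 or 500 bp. The number of lists with a median above that of all promoters was 13 and stayed between 12 and 13 under the 3 alternatives, which were added after the data were seen. The left-out means differed by 0.0929 to 0.117 percentage points with 1 library left out of the comparison, where the site sets stayed as they were, and the highest exact permutation p was 0.00952. As the share of cytosines above 0, the difference was 1.76 percentage points (exact permutation p = 0.0584). With a replicate block by day, the difference was 0.117 and the exact permutation p 0.0625, the smallest that 5 pairs allow. Of promoters with at least 5 members, 94 (1.47%) were called with an offset of 0.05 and 113 (1.77%) with experimental day 0 added. Over all promoters tested these shares were 3.83% and 3.63%. With the replicate block by day 4 were called (24 over all promoters). Between 28 and 61 were called with 1 library left out (140 to 298 over all promoters). Where values moved, the cause was not tested. Over the alternative fits of the 6 promoters named from this comparison, 75 kept their direction and side of the threshold, 27 lost the threshold and 0 changed direction. Smarca5 passed in all 17 of its fits, Foxc1 and Pias4 in 16 of 17, Rara in 15, Rhod in 6 and Lfng in 5. The fit that ended the call of Foxc1 and Pias4 was the replicate block by day (limma adjusted p = 0.105 and 0.0703), and Rara lost it there (0.0994) and on beta values. Deviations of same-day libraries of the lines correlated by at most 0.00295, and those of different days by up to 0.00424. In 3 of 5 days the own day correlated best. This does not settle whether the days act as pairs. The main comparisons left the libraries unpaired, and the fits with the block by day are given above. Unknown read depth limits how a 0 can be read.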

Other observations

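The X chromosome, left out of all counts above, held 120 cytosines at 0 in all 12 libraries among 11037 listed (1.09%), where library means of methylation ran from 44.9% to 53.4%.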
